A study of Homo sapiens with 4 samples.

Results

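Small nucleolar RNAs (snoRNAs) and small Cajal body RNAs (scaRNAs) were followed across 4 precursor B-cell acute lymphoblastic leukaemia lines. They were selected by gene symbol, as probe sets for which the platform annotation lists exactly 1 symbol that starts with SNORD, SNORA or SCARNA, with the SNORD116 cluster left out. This gave 178 probe sets for 172 genes, of 32968 probe sets on the array, of which 19310 have 1 symbol. There were 95 box C/D (SNORD), 64 box H/ACA (SNORA) and 19 Cajal body (SCARNA) probe sets. A pair of SNORA10 and a pair of SNORA15 probe sets held identical values, which left 176 distinct sets of values. SNORD116 had 20 probe sets of its own symbol, which were not used here.

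The translocation t(4;11), a fusion of KMT2A (MLL) with AFF1, is present in RS4;11 and SEM and absent from NALM6 and REH. Each established line was grown untreated to sub-confluency in RPMI medium with 10% fetal bovine serum and gave total RNA for 1 Affymetrix whole-transcript array. A group is therefore 2 lines, and any other difference between the lines enters the contrast. The series compares leukaemic transcriptomes with and without rearranged MLL. All values are on the log2 scale after robust multi-array averaging (RMA), so that 1 unit is a 2-fold step. Where 4 values are given in a row, they are those of RS4;11, SEM, NALM6 and REH, in that order. The array medians lay between 6.40 and 6.46.

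The lines matched their label in part. Of 10 precursor B-cell markers, 8 were measured and 5 lay above the array median in all 4 lines, with marker medians of 11.06, 8.14, 11.16 and 11.32. PAX5, CD22 and CD79A lay at 11.05 or above in every line. SEM had the lowest marker median, with CD79B at 7.63 and RAG1 at 6.33, and VPREB1 was lowest in REH at 5.51. DNTT was low in both translocation lines (6.88, 5.11, 11.54, 12.43). No T and NK, myeloid, erythroid or stromal marker lay above the array median in all 4 lines, but single ones were high in some. The cytotoxic granule gene NKG7 read 10.99, 9.13, 6.39 and 7.11, higher in both translocation lines. The myeloid gene LYZ read 8.27, 8.50, 9.65 and 5.80, and MPO read 7.57 in REH. CSF1R, also on the myeloid list, read 5.88, 7.69, 5.53 and 5.66, highest in SEM. The part of these markers in the values below was not tested. In RNA from a whole culture, fewer cells of a type and less RNA per cell cannot be told apart.

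Box C/D RNAs bind fibrillarin and guide 2'-O-methylation of ribosomal RNA, and box H/ACA RNAs bind dyskerin and guide its pseudouridylation. ScaRNAs carry either kind of box, or both, are held in Cajal bodies and guide the same modifications on spliceosomal snRNAs. In vertebrates most of these RNAs are trimmed from the introns of a host gene after splicing. Many hosts are ribosomal protein genes or noncoding transcripts whose start follows the terminal oligopyrimidine (TOP) pattern of translation genes. A few members, such as SNORD13 (U13), take part in ribosomal RNA processing or acetylation and do not guide methylation.

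The starts of 5 host genes are shown because their small RNAs carry the line-to-line patterns described below. Each is the 50 bases before and the 50 bases from the annotated start, on the gene's strand, from RefSeq on GRCh38.p14. Capitals mark CTTT where all of it lies within the 15-base window from 5 bases before the start to 10 bases into the transcript. RPSA lies on the plus strand at chr3:39406670-39406769, RPL13A on the plus strand at chr19:49487558-49487657, GAS5 on the minus strand at chr1:173868996-173869095, CEP295 on the plus strand at chr11:93661632-93661731 and TBRG4 on the minus strand at chr7:45111648-45111747.
RPSA: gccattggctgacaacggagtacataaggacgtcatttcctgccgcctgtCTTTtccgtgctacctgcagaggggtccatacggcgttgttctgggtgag
RPL13A: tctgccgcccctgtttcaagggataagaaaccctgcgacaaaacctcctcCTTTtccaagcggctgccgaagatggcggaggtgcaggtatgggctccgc
GAS5: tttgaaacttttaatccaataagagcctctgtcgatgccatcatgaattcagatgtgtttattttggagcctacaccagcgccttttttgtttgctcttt
CEP295: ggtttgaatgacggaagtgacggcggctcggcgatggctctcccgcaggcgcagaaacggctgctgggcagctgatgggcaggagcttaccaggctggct
TBRG4: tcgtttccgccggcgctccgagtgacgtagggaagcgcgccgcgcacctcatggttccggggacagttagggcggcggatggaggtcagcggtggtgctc

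CTTT, a short pyrimidine run, was found in that window on the gene's strand in 26 of 87 hosts with a start sequence (29.9%). It was found in 8 of 12 ribosomal protein hosts (66.7%), in 18 of 75 other hosts (24.0%) and in 2288 of 27305 genes of the whole start table (8.38%). Its reverse complement AAAG was in 0 of the 87 hosts and in 5.45% of all genes. In RPSA and RPL13A the run begins at the first base of the transcript, and the windows of GAS5, CEP295 and TBRG4 do not hold these letters. The window depends on the annotated start. The printed GAS5 sequence holds CTTT outside it, and other starts of these genes were not searched.

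The end of 1 scaRNA is also shown, because its annotated gene overlaps a microRNA hairpin. The hairpin of MIR6516 begins within SCARNA16, whose gene is 187 bases long. Shown are the last 77 bases of that gene, from the first base of the hairpin. They lie at chr17:77089417-77089493 on the plus strand of GRCh38.p14. Capitals mark the ACA box, which stands 3 bases before the end, where box H/ACA RNAs carry it.
SCARNA16: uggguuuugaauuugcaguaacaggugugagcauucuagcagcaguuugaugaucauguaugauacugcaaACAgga

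SCARNA16 read 9.05, 8.46, 8.91 and 8.37, so that RS4;11 and NALM6 were the high lines and the groups overlapped.

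No member passed the test between the translocation lines and the others. With limma and Benjamini-Hochberg adjustment over all 32968 probe sets, 0 of 178 members had an adjusted p under 0.05, against 12 probe sets (0.0364%) on the whole array, and the lowest adjusted p of a member was 0.389. Without adjustment, 16 members were higher and 14 lower at p under 0.05, where 4.97% and 4.02% of all probe sets were. The groups did not overlap, with the translocation lines higher, in 49 members (27.5%) against 24.1% of all probe sets. They did not overlap in the opposite direction in 39 members (21.9%) against 17.4%. In 0 members were the groups separated by 2-fold in either direction, where 0.722% of all probe sets were separated upwards and 0.582% downwards. P-values measure the spread between these lines, culture and array included, and the number of arrays limits the precision. An exact two-sided test of 2 lines against 2 gives no p below 0.33.

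The members were bright, and few spanned 2-fold between lines. In all 4 lines 130 of 178 (73.0%) lay above the array median, where 44.9% of all probe sets did. Of the members 17 (9.55%) spanned 2-fold or more over the lines, where 15.5% of all probe sets did. The median range over the lines was 0.45 in box C/D, 0.50 in box H/ACA and 0.93 in Cajal body RNAs, and 0.38 over all probe sets. Among bright probe sets, whose highest value reaches the median of the table, the median range was 0.55 in box C/D, 0.52 in box H/ACA, 0.95 in Cajal body RNAs and 0.57 over all. A 2-fold range was found in 25.5% of all bright probe sets. SNORA15, within CCT6A, and the tandem copy SNORD114-6 lay nearest the members' median difference of 0.07. SNORA15 read 8.08, 7.80, 8.04 and 7.70 in the nearest of its probe sets. SNORD114-6 read 4.99, 4.95, 4.92 and 4.88, which is low on the array.

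Cajal body RNAs stood lower in the translocation lines, most of all in SEM, though none passed the adjusted test. Of 19 probe sets 13 (68.4%) had a lower mean in the translocation lines, and the median difference was -0.43. SCARNA9, SCARNA9L and SCARNA17 have several probe sets each, so that the counts given here hold some genes more than once. Over all probe sets 43.8% were lower, and the median difference was 0.03. Without overlap of the groups, 9 of 19 (47.4%) were lower and 1 (5.26%) was higher, against 17.4% and 24.1% of all probe sets. SEM was the lowest line in 12 of 19 (63.2%), against 23.8% of all probe sets, and REH was the highest in 12 of 19, against 22.1%. The median of SEM minus the other lines was -0.46, and that of REH minus the other lines was 0.47. RS4;11 (-0.01) and NALM6 (0.10) stood between them. Both outer lines set the size of the difference, whose median was -0.23 without SEM and -0.22 without REH.

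SCARNA17 had the smallest p of all members. Its brighter probe set read 8.77, 8.47, 9.36 and 9.43, and both translocation lines lay below both others. The means were 8.62 ± 0.21 and 9.40 ± 0.05 (SD, n = 2 lines each), a difference of -0.78 with an SE of 0.15 and a limma adjusted p of 0.389. The other SCARNA17 probe set read 8.41, 8.06, 8.86 and 8.84, in which the same lines were low.

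SCARNA10 (U85), which guides both kinds of modification on the U5 snRNA, read 9.59, 9.55, 9.94 and 10.24. SCARNA8 read 8.33, 8.39, 8.65 and 8.92, and SCARNA22 read 8.34, 8.03, 8.60 and 8.80. In these 3 scaRNAs the groups did not overlap and REH was the highest line, though RS4;11 was the lowest in SCARNA8. SCARNA4 (8.51, 7.80, 8.70, 8.80), SCARNA6 (7.83, 7.28, 8.04, 8.23) and SCARNA23 (7.76, 7.35, 7.90, 8.28) shared an order of lines. SEM was the lowest, then RS4;11, NALM6 and REH, as in SCARNA10 and SCARNA22. SCARNA1 (8.69, 8.38, 8.76, 8.93) followed this order with smaller steps. In SCARNA4, SCARNA6, SCARNA23 and SCARNA1 the groups did not overlap either. SCARNA5 read 9.07, 8.65, 9.21 and 9.06, where SEM alone was low.

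SCARNA9, which guides 2'-O-methylation of the U2 snRNA, and SCARNA7 were high in REH alone. The brighter SCARNA9 probe set read 10.0, 9.54, 9.87 and 11.45, so that REH lay 2.72-fold above the nearest line. The other read 8.55, 7.64, 7.79 and 9.45, a 1.86-fold gap. SCARNA7 read 9.46, 9.19, 9.31 and 10.19, a 1.65-fold gap. SCARNA9L, the X-linked relative of SCARNA9, read 8.53, 8.03, 7.48 and 8.35 in one probe set and 6.43, 5.72, 5.39 and 6.71 in the other, both lowest in NALM6. Related copies can share probes, and the share of SCARNA9 signal in SCARNA9L was not tested.

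SCARNA12, within PHB2, broke the pattern, with 12.04, 11.41, 10.94 and 11.97 and its lowest value in NALM6. SCARNA11 (5.82, 5.82, 5.83, 5.60) and SCARNA14 (5.02, 5.09, 5.0, 5.02) lay below the array median in every line and hardly moved.

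**Figure D1:**
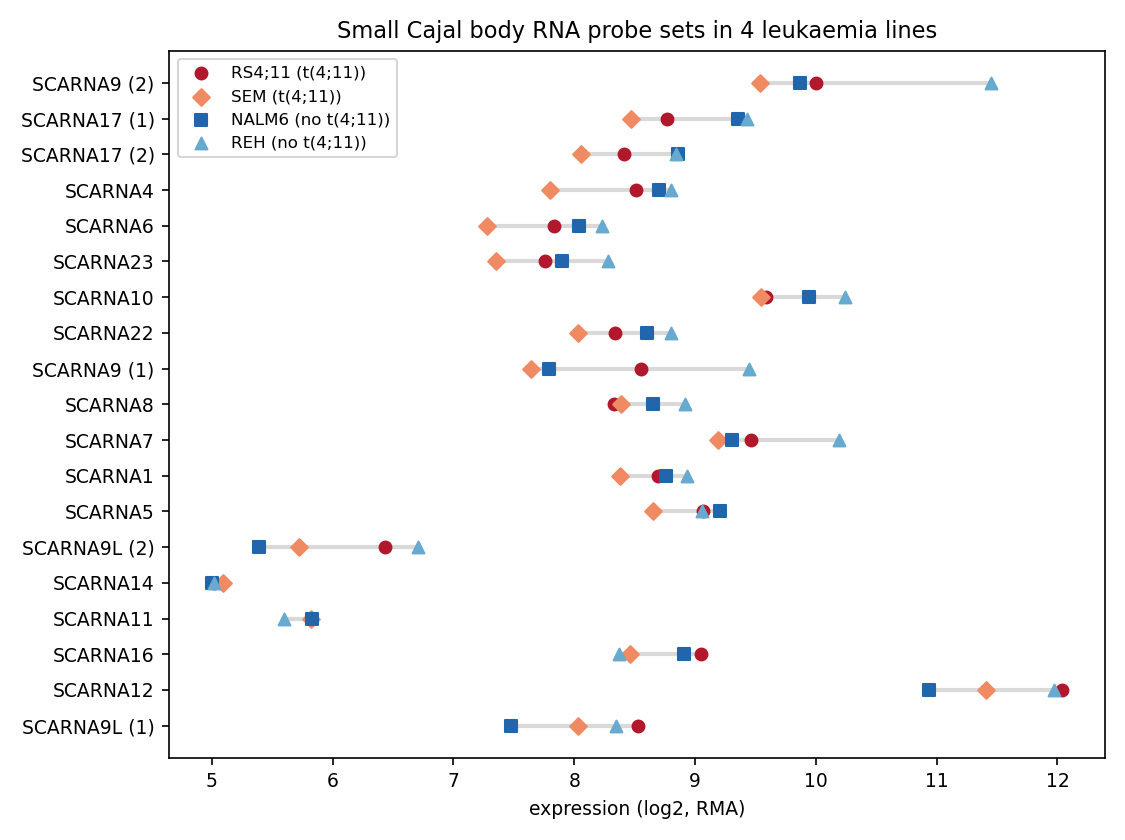
Expression (log2, RMA) of each of the 19 Cajal body RNA probe sets (rows, ordered by the group difference) in the 4 lines (points, 1 array each, with a grey bar over their range). SEM is the leftmost point in 12 rows and REH the rightmost in 12, and the brighter SCARNA9 probe set reaches 11.45 in REH.

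The other classes centred near the array. The median difference was 0.11 in box C/D and 0.07 in box H/ACA RNAs. Leaving out each line in turn gave 0.04 to 0.19 for box C/D. For box H/ACA it gave -0.03 without RS4;11 and -0.05 without REH, so that its direction rests on those lines. Without overlap, 33 box C/D RNAs (34.7%) were higher and 18 (18.9%) lower in the translocation lines, as were 15 (23.4%) and 12 (18.8%) box H/ACA RNAs. The shares over all probe sets were 24.1% and 17.4%, and those of box H/ACA lay near them. Without the SNORD113, SNORD114 and SNORD115 copies, 21 of 69 box C/D RNAs (30.4%) were higher and 18 (26.1%) lower without overlap. REH was the lowest line in 46 of 95 box C/D (48.4%) and 30 of 64 box H/ACA probe sets (46.9%), against 35.9% of all probe sets, and in 2 of 19 Cajal body RNAs. RS4;11 was the lowest line in 8 of 178 members (4.49%), against 18.6%, and the highest in 70 (39.3%), against 31.4%. In box C/D it was the highest in 42 of 95 (44.2%). Without the SNORD113, SNORD114 and SNORD115 copies it was the highest in 19 of 69 (27.5%), below the share over all probe sets. NALM6 was the lowest line in 30 members (16.9%), against 21.7%. SEM was the lowest in 62 members (34.8%), against 23.8%, among them 29 box C/D (30.5%) and 21 box H/ACA probe sets (32.8%), so that a low SEM was not confined to Cajal body RNAs. The difference between classes was not tested, since genes are no replicates of a condition.

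**Figure D2:**
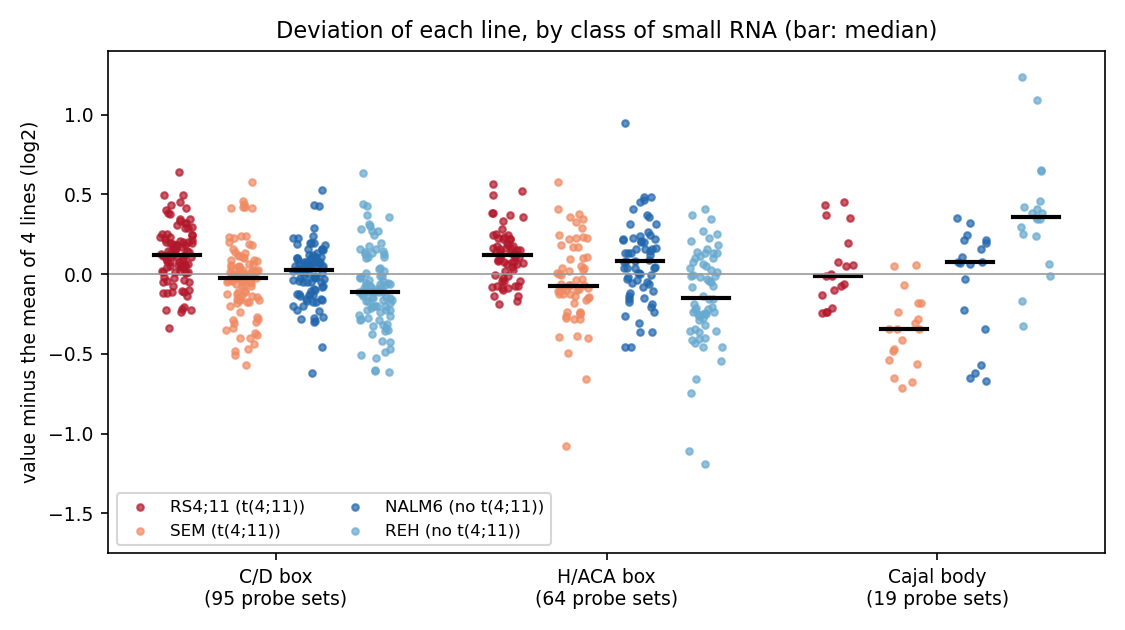
Value of each probe set in each line minus its mean over the 4 lines (log2), by class (points: probe sets; black bars: medians). Cajal body RNAs lie low in SEM and high in REH, while the 64 box H/ACA and 95 box C/D probe sets centre near 0.

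Box C/D RNAs within GAS5 had higher means together in the translocation lines. GAS5 is a noncoding host whose spliced RNA is short-lived while its introns yield a run of box C/D RNAs. All 7 members within it had a higher mean, by 0.09 to 0.78 with a median of 0.57. The groups did not overlap in 6, against 24.1% of all probe sets, counted with no tolerance. In SNORD81 and SNORD79 RS4;11 and NALM6 were level to within 0.02. SEM was the highest line in 6 of 7 and REH the lowest in 5 of 7. They share a precursor, so that they are not independent, and 0 of them passed the adjusted test.

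SNORD78 read 11.23, 11.61, 10.86 and 10.43, a difference of 0.78 with an SE of 0.23. SNORD77 read 7.57, 7.74, 7.15 and 6.67, and SNORD75 read 9.96, 10.19, 9.70 and 9.25. In each of these REH was the low line and SEM the high one. SNORD44, which is widely used as a reference RNA in small RNA assays, read 11.10, 11.36, 10.65 and 10.67. Its means were 11.23 ± 0.18 and 10.66 ± 0.01 (SD, n = 2 lines each), with a limma adjusted p of 0.44. SNORD79 (10.22, 10.68, 10.21, 9.92) and SNORD81 (10.76, 10.94, 10.76, 10.35) were again highest in SEM and lowest in REH. SNORD74 was the exception, with 11.66, 11.66, 11.38 and 11.75 and its highest value in REH.

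Box C/D RNAs within ribosomal protein genes went either way. The 4 within RPL13A, which have been studied in the oxidative stress response, all had lower means in the translocation lines, by 0.14 to 0.39, and were lowest in SEM. SNORD32A read 11.91, 11.50, 12.02 and 12.17, and SNORD33 read 13.22, 13.11, 13.28 and 13.34, both without overlap. Over all probe sets 17.4% were lower without overlap. SNORD34 (10.17, 9.82, 10.30, 10.15) and SNORD35A (11.52, 10.97, 11.59, 11.33) overlapped through RS4;11.

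The 3 within RPL3 had higher means in the translocation lines, 2 of them without overlap, as were 24.1% of all probe sets. SNORD43 read 9.47, 8.91, 8.53 and 8.41, which put RS4;11 1.47-fold above the next line. SNORD83B read 8.81, 8.03, 8.11 and 8.30, high in RS4;11 but lowest in SEM, so that the groups overlapped. SNORD83A read 5.72, 6.12, 5.43 and 5.53, high in SEM. The RPL3 probe set itself ran flat at 13.14, 13.13, 13.03 and 13.04.

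Within RPL23A, 2 of 3 members were higher and SNORD42A was lower. SNORD42A read 8.94, 9.21, 9.33 and 9.64, lowest in RS4;11, while the host stayed between 13.08 and 13.12. SNORD45A (12.69 and 12.77 in RS4;11 and SEM, 13.24 in REH) and SNORD45C (10.50, 10.42, 10.82, 11.15), within RABGGTB, were lower in the translocation lines without overlap. Of all probe sets 17.4% were so. SNORD45B (10.50, 10.07, 10.31, 10.11), also within RABGGTB, overlapped. NCL, which encodes nucleolin, holds SNORD20 with 8.42, 8.48, 9.05 and 8.15, highest in NALM6, and the host read 12.30, 12.33, 12.40 and 12.05. SNORD56B, within SIPA1L1, read 7.56, 7.44, 6.96 and 7.0, a difference of 0.52 with an SE of 0.10 and a limma adjusted p of 0.404. The host had the other sign, with 9.44, 9.38, 9.34 and 9.90 and a difference of -0.21 with an SE of 0.23.

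Other box C/D RNAs were set apart in 1 line by less than 2-fold. In NALM6, SNORD58A was low (10.22, 10.06, 9.35, 10.25), as was SNORD105 (6.76, 6.77, 6.16, 6.77). In REH, SNORD117, within DDX39B, was high (8.21, 7.98, 8.43, 9.05). SNORD96B read 5.66, 6.07, 5.98 and 5.81 and was the second lowest in RS4;11 by its gap to the other lines. SNORD50A and SNORD50B are lost together in several cancers. SNORD50A read 9.97, 9.85, 10.04 and 9.69, with overlap. SNORD50B read 8.87, 8.91, 8.70 and 8.20, in which REH alone was low and the groups did not overlap.

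Box H/ACA RNAs held the members lowest in REH. SNORA6 read 9.04, 8.83, 8.95 and 7.35, and SNORA62 read 9.19, 8.97, 8.83 and 7.52. Both lie within RPSA, which encodes a small-subunit ribosomal protein, and REH lay 2.78-fold and 2.49-fold below the nearest line. The other 3 lines lay within 0.21 of each other for SNORA6, and its group difference was -0.02 without REH and 0.78 with it. REH was set 2-fold below the other lines in these 2 members and 2-fold above in 1, SCARNA9. Over all probe sets 0.955% were so low and 1.5% so high in REH. In the other lines no member reached a 2-fold gap before rounding, and SNORA5A in SEM came nearest, with a gap that rounds to 1.0 on the log2 scale. With each array centred on its median, 3 members in place of 2 were set 2-fold below the other lines. Over all probe sets, 0.613% were so high and 0.488% so low in RS4;11, 1.11% and 0.519% in SEM, and 0.84% and 0.831% in NALM6. RPSA has no probe set of its own symbol alone, so that its level is not given.

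SNORA5A, SNORA5B and SNORA5C, within TBRG4, a regulator of mitochondrial RNA, were lower in the translocation lines without overlap. Of all probe sets 17.4% were so, and in SNORA5C the gap between the groups was only 0.04. SNORA5A read 8.75, 7.75, 9.77 and 9.03, SNORA5C read 7.60, 6.87, 8.01 and 7.63, and SNORA5B read 4.76, 4.79, 5.17 and 5.08. NALM6 was the highest line for all 3, and SEM was low in the brighter pair. The host read 8.26, 8.14, 9.16 and 8.76, a difference of -0.76 with an SE of 0.18 and a limma adjusted p of 0.449, so that host and small RNAs had the same order of lines in SNORA5A.

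**Figure D3:**
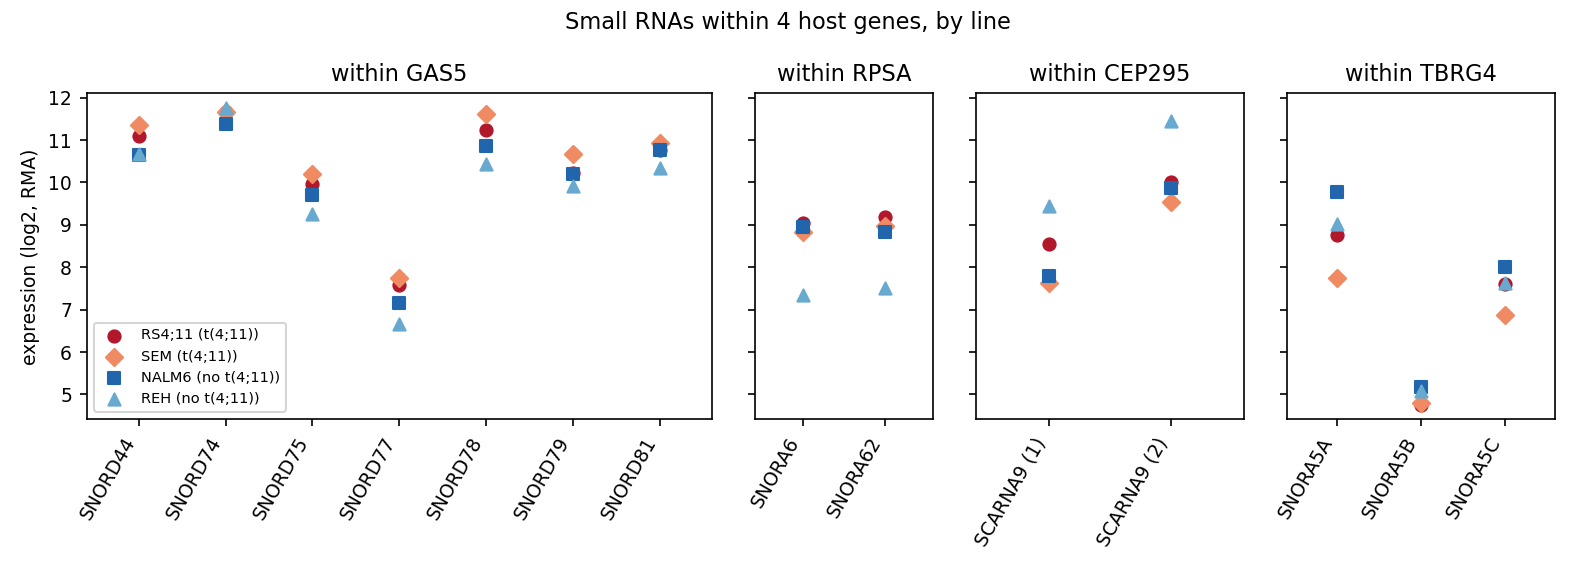
Expression (log2, RMA) of the small RNAs within GAS5, RPSA, CEP295 and TBRG4 (1 panel each) in the 4 lines (points, 1 array each). SEM lies on top in 6 of 7 GAS5 members, REH lies at 7.35 and 7.52 in the RPSA pair and at 11.45 and 9.45 in the SCARNA9 probe sets of CEP295, and NALM6 lies on top in TBRG4.

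SNORA36C, within the kinase gene AAK1, read 7.39, 7.83, 6.99 and 6.79, and its host read 10.47, 11.35, 9.66 and 9.74. Both were highest in SEM. SNORA16B (7.88, 8.08, 7.34, 7.52) and SNORA80B (6.08, 6.04, 5.67, 5.64) were higher in the translocation lines without overlap, with limma adjusted p of 0.462 and 0.439. SNORA80A (7.64, 7.59, 7.71, 7.32) and SNORA80E (9.13, 8.50, 8.99, 9.37) overlapped.

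The 3 SNORA71 members, within SNHG17, held between 10.43 and 12.62 and differed by -0.19 to 0.01. Their host did not hold with them and read 10.11, 10.12, 9.41 and 9.42, a difference of 0.70 with an SE of 0.09 and a limma adjusted p of 0.304. A probe set outside the rule, which lists SNORA71B with SNHG17, read 10.04, 10.04, 9.73 and 9.73, a difference of 0.31 in the host's direction. The 3 probe sets of SNORA15, a gene annotated within CCT6A, ran from 7.50 to 8.08, lowest in REH. Where each of them lies was not checked. CCT6A read 9.74, 10.86, 10.51 and 9.80.

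The 6 SNORA70 copies lie in different hosts and ran from 4.61 to 7.83. SNORA70G, within RAP1B, read 6.65, 6.64, 7.20 and 6.45, and RAP1B read 11.02, 11.26, 11.75 and 11.22. SNORA70E, within RAB30, read 5.35, 5.33, 5.88 and 5.15, and RAB30 read 5.68, 6.42, 9.07 and 6.45. In both pairs NALM6 was highest in the copy and in the host, though the step in RAB30 was far larger.

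Tandem imprinted copies lay near the low end of the array. The 20 SNORD115 copies, within SNHG14 on the Prader-Willi region and known for pairing with the serotonin receptor HTR2C message in brain, ran from 4.10 to 6.62. In all 4 lines 17 of them lay below the array median and 10 below its 25th percentile, which ranged from 4.97 to 5.02. SNORD115-37 (6.62, 6.40, 6.25, 6.35), SNORD115-14 (6.50, 5.95, 5.87, 5.69) and SNORD115-4 (6.46, 5.92, 6.0, 5.74) were the brightest. RS4;11 was the highest line in 17 of 20, against 31.4% of all probe sets, and REH the lowest in 13 of 20, against 35.9%. The differences ran from -0.03 to 0.45. Without overlap 9 were higher and 0 lower, against 24.1% and 17.4% of all probe sets. Near-identical copies share probes, so that the copies are no independent measurements, and RMA gives no detection call.

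The 6 copies within MEG8 were as low. The 2 SNORD113 copies ran from 4.07 to 5.16 and the 4 SNORD114 copies from 4.27 to 4.99. RS4;11 was the highest line in all 6, by small steps. Without these 3 families, box C/D RNAs had a median difference of 0.08, and 62 of the remaining 69 lay above the array median in all 4 lines.

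**Figure D4:**
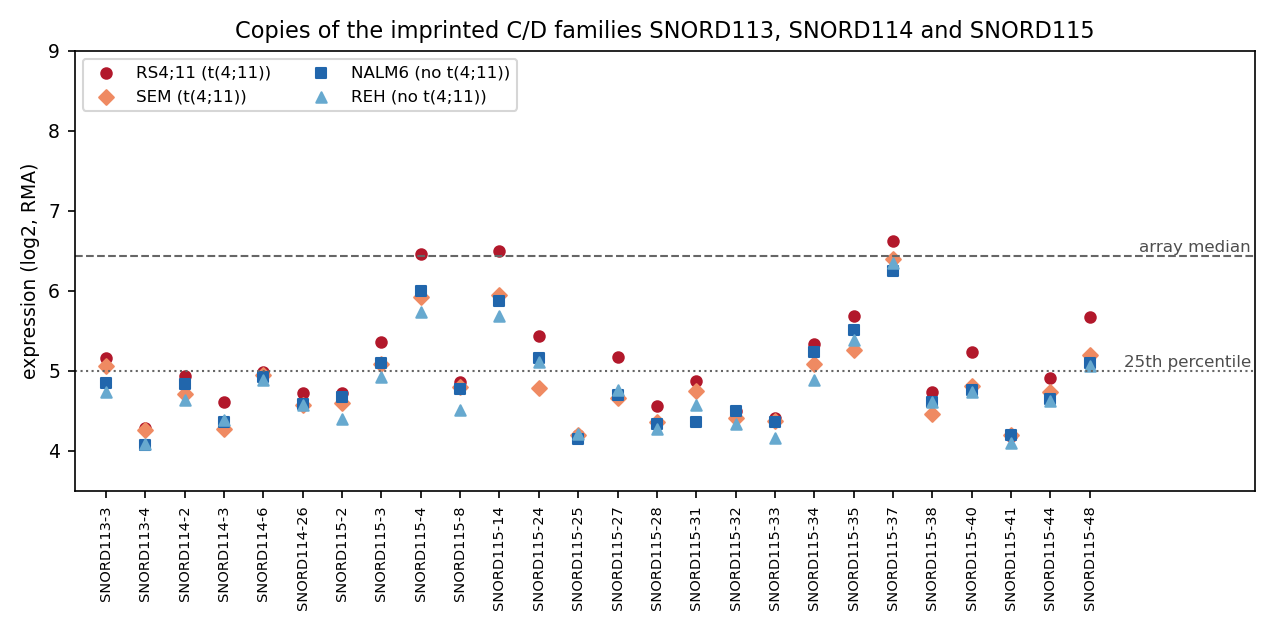
Expression (log2, RMA) of the 2 SNORD113, 4 SNORD114 and 20 SNORD115 copies in the 4 lines (points, 1 array each), with the mean of the 4 array medians (dashed) and of the 25th percentiles (dotted). RS4;11 is the highest point in 17 of 20 SNORD115 copies, and 17 copies stay below the array median in every line.

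SNORD13, the U13 RNA that directs acetylation of small-subunit ribosomal RNA, was among the brightest members at 13.44, 13.43, 13.65 and 13.72. SNORD13P3 followed it closely at 13.26, 13.27, 13.46 and 13.52, although KIF9, which spans it, read 5.69, 6.11, 5.79 and 4.82. Pseudogene copies may be read by the same probes, so that SNORD13P3 is uncertain. SNORD13P1 ran from 3.75 to 3.98. SNORD13P2 read 7.93, 7.65, 8.59 and 8.46 and FOXK1, its host, read 8.16, 8.14, 8.90 and 9.01. Both were lower in the translocation lines without overlap, by 0.73 (SE 0.14) and 0.80 (SE 0.10), with limma adjusted p of 0.408 and 0.295.

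Hosts and small RNAs shared a direction in most pairs. A named gene spanned 176 of 178 members, in 105 hosts, of which 72 had a probe set of their own symbol. Of the 99 members in these 72 hosts, 69 (69.7%) had a group difference of the sign of the host's. By class these were 21 of 35 box C/D, 39 of 50 box H/ACA and 9 of 14 Cajal body members. The identical probe sets of SNORA10 and of SNORA15 each count here, under the host of their gene. Most hosts, and 112 of all 178 members, had a positive difference, so that many pairs share a sign without any link. The share to be found without a link was not computed. Across hosts Pearson's r between the host's difference and the mean of its members' was 0.46 and Spearman's rho 0.47. This is a description across 72 genes on the same 4 arrays, and an intronic probe set can read the host's unspliced RNA, which was not tested. Host differences were 2-fold or more in AAK1 (1.21, SE 0.34) and RAB30 (-1.71, SE 1.02), and the members of both had the host's sign.

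The hosts of Cajal body RNAs were near level. Of these, 11 were measured and had a median difference of 0.01, with 7 higher and 4 lower, while the 14 members within them had a median of -0.47. SEM was the lowest line in 9 of these 14 members and in 2 of the 11 hosts. CEP295, a centriole protein gene that holds SCARNA9, read 9.39, 9.33, 9.29 and 9.65, so that REH was the highest line but by far less than in SCARNA9. EIF1AX, a translation initiation factor gene that holds SCARNA9L, read 11.59, 11.84, 10.95 and 10.96, a difference of 0.76 with an SE of 0.13 and a limma adjusted p of 0.365.

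**Figure D5:**
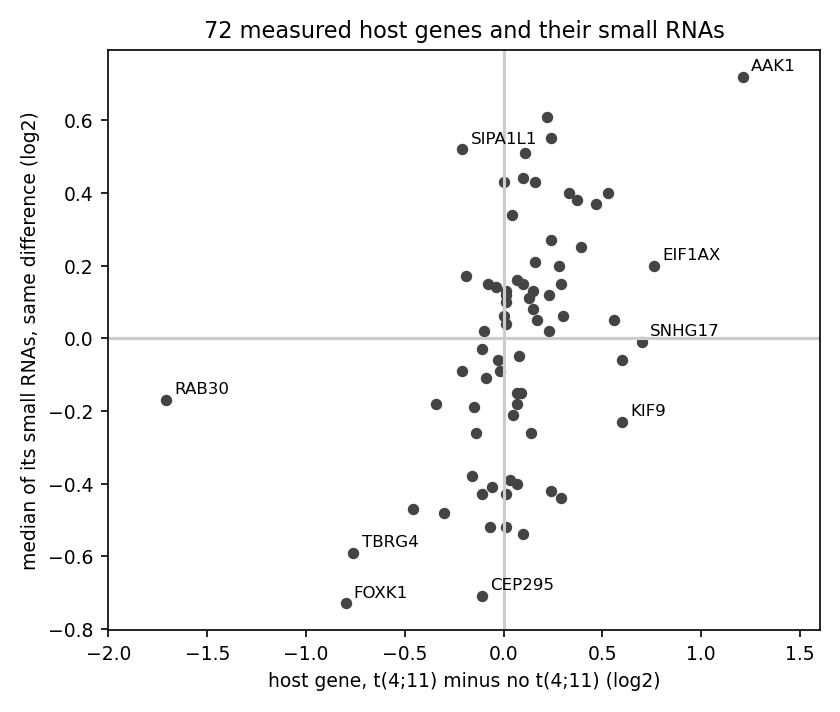
Difference of translocation lines minus the others (log2) in each of the 72 measured host genes (x axis) and the median of the same difference over its small RNAs (y axis). Points are hosts, RAB30 and AAK1 lie farthest out at -1.71 and 1.21, and SNHG17 (0.70) lies far to the right with its small RNAs near 0.

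Genes for the proteins of these particles were near level. Of 35 listed core, assembly, trimming and nucleolar genes, 31 were measured, 24 higher and 7 lower in the translocation lines with a median difference of 0.09. Over all probe sets 43.8% were lower, and the median difference was 0.03. Without overlap 9 of the 31 were higher and 3 lower, against 24.1% and 17.4% of all probe sets. None passed the adjusted test with limma (lowest adjusted p 0.507). Without adjustment 0 were higher and 1 was lower at p under 0.05, where 4.97% and 4.02% of all probe sets were. The 4 with the largest differences were COIL, NUFIP1, RPAP3 and NHP2. COIL, the scaffold of Cajal bodies, read 10.53, 10.57, 10.29 and 9.66, lowest in REH. The assembly factors NUFIP1 (9.81, 9.14, 10.12, 9.81) and RPAP3 (9.19, 9.41, 9.79, 9.70) were lower in the translocation lines on average. NHP2, a core box H/ACA protein, read 10.09, 10.01, 9.93 and 9.44. WRAP53, which brings scaRNAs to Cajal bodies, read 8.06, 7.93, 8.12 and 8.34, and FBL, the fibrillarin gene, read 11.37, 11.43, 11.68 and 11.55.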

How the data were processed

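Total RNA of 4 cell lines was measured on 1 Affymetrix whole-transcript array each. The deposited values are log2 expression per probe set, made by the authors with RMA and Partek, per the submitters' processing notes. No label names their versions or the annotation build. The scale is not stated and was inferred from the values. RMA's quantile step removes array-wide differences, and there is no detection call and no depth.

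Group differences were fitted with limma 3.58.1 in R 4.3.3 (lmFit and eBayes, 2 residual and 1.54 prior degrees of freedom, median SE 0.14), with p-values adjusted over all 32968 probe sets and a threshold of 0.05. The script was tested on simulated data. A positive difference is higher in the translocation lines. Of all probe sets 1752 list several symbols and 11906 list none. Those with none stayed in the fit, and control probe sets among them could not be told from the others. All 178 members matched RefSeq (GRCh38.p14) by Entrez ID. The host is the shortest named gene that spans a member. It was found from the RefSeq position of the member's gene, so that all probe sets of a gene take the same host. The position of each probe set was not checked. The design asked for the same strand, which the table used does not give, so that strand was not checked. 76 probe sets that list a small RNA among several symbols lie outside the rule.

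Named were members past the adjusted threshold (none), those separated 2-fold (none), in each line the 4 members farthest above and 2 farthest below the nearest line, SCARNA members, families and hosts with several members, and examples near the median. The members of 1 such host are not reported here. SNORD44, SNORD56B, SNORD13P2, SNORA16B, SNORA80B, SNORD50A, SNORD50B, SNORA71B, WRAP53, FBL, RAP1B, KIF9 and SIPA1L1 were picked after their values were seen. So were the single members given for RPL13A, RABGGTB, GAS5 and RPSA hosts, and the sequences shown. The members and lists were chosen with earlier results of these data known. Alternatives were another scaling, a filter on dim probe sets, 1 probe set per gene, other moderation, other thresholds and each line left out.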

Additional observations from a re-analysis of the deposited data

How the results depend on the processing

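No member passed an adjusted p under 0.05 in any of the alternative fits, and 9 to 34 members had an unadjusted p under 0.05. Leaving out 1 line gave 0 to 2 members separated 2-fold upwards and 0 to 1 downwards. It gave medians of 0.04 to 0.19 for box C/D, -0.05 to 0.19 for box H/ACA (-0.03 without RS4;11, -0.05 without REH) and -0.61 to -0.22 for Cajal body RNAs, so that the size of each depends on single lines. At 4-fold, 0 members were set apart above and 0 below the other lines, in place of 1 and 2, and with arrays centred on their medians 3 were set apart below. Of the named members, SNORA6 turned to -0.02 without REH and ranged up to 1.58 without NALM6. The brighter SCARNA9 probe set ranged from -0.10 without REH to -1.68 without NALM6, SNORA62 from 0.25 to 1.56 without the same lines, and SNORA5C from -0.23 without SEM to -0.95 without RS4;11. The causes were not tested.

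No paired analysis was possible because the replicate numbers only follow the order of the samples and pair no lines. With 1 array per line, neither culture nor array error within a line is known. RMA gives no measure of background, which limits what the values near the low end of the array show.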

Other observations

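Probe sets that list a small RNA together with other symbols lay outside the rule, and some followed the patterns above. They were chosen after their values were seen. The probe set of SCARNA13 and its host SNHG10 read 9.56, 9.21, 10.17 and 10.30 in RS4;11, SEM, NALM6 and REH, with SEM lowest and REH highest as in most Cajal body RNAs. That of SCARNA15 and SNHG21 read 6.04, 5.73, 5.92 and 5.96, a difference of only -0.05, lowest in SEM but highest in RS4;11. Of 3 probe sets that list GAS5 with SNORD76, SNORD47 or SNORD80, the first (11.99, 12.19, 11.75, 11.84) and the next (11.27, 11.47, 11.20, 11.30) were highest in SEM, while SNORD80 ran flat from 10.09 to 10.14.

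The U3 RNA, which directs early cleavage of the ribosomal precursor, is read by 5 probe sets with identical values of 11.50, 10.79, 11.19 and 9.91, lowest in REH. SNORD5, listed with its host TAF1D, read 12.49, 12.19, 11.71 and 11.70, higher in both translocation lines by a mean of 0.64. The other probe sets that list TAF1D, with SNORD6, SNORA1, SNORA8 or SNORA40, differed by -0.36 to 0.17. SNORA59A and SNORA59B share a value set of 6.98, 6.76, 7.41 and 8.47, and SNORA9 with SNHG15 read 7.93, 8.0, 7.14 and 9.13, both highest in REH. SNORD109A and SNORD109B, which lie in the same imprinted region as SNORD115, read 5.13 in RS4;11 against 8.75, 8.36 and 8.32. RS4;11 was the highest line in 17 of 20 SNORD115 copies, but these lay near the low end of the array. Their differences ran from -0.03 to 0.45, so that this rank is no counterpart to the low SNORD109 value.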
